A study of Oryza sativa with 12 samples.

Results

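A set of 110 probe sets, of 57258 rice probe sets on the array, gave a higher signal in the rice cultivar Jamaica than in the cultivar C bao in both tissues sampled. They were chosen by their measured values: the Jamaica minus C bao difference of group means of log2(signal + 16) had to exceed 3 in root and 2 in leaf. Of the 114 probe sets that met this rule, 4 were left out by gene name (METK3, Cht2 and 2 probe sets of HSP18.0). The difference between the parents therefore describes how the members were chosen and was not tested. The tests below concern the F1 hybrid, whose arrays the rule did not use.

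The study measured RNA on 12 Affymetrix rice arrays, 2 for each of 6 groups: leaves and roots of C bao, of Jamaica and of the F1 hybrid of C bao and Jamaica. Per the series title, it concerned hybrid weakness, the poor growth of a hybrid from parents that grow normally, and the response to stress. The leaf samples were taken at an age of 4 weeks and the root samples at 7 days, and organ and age cannot be told apart. The labels give no treatment and no direction of the cross. Nor do they state whether the replicates were separate plants, and p-values measure only the spread between these arrays.

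The signal is the MAS5 summary of the short probes that make up a probe set, on a linear scale that the authors had set to the same trimmed mean on all arrays. Where a hybrid carries 1 expressed and 1 silent copy of a gene, the simplest arithmetic expectation is the mean of the parents on the linear scale. On a log scale that value lies close to the higher parent when the parents differ widely. A probe made to the sequence of 1 cultivar can also bind the allele of another cultivar poorly, so a parental difference in RNA and one in probe binding cannot be told apart from these signals. In the same way, fewer cells of a type and less RNA per cell cannot be told apart in whole roots or leaves.

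A single gene was annotated for 49 of the 110 (44.5%, against 39.2% of all rice probe sets), 1 matched several genes and 60 had none in the annotation used. These 49 probe sets stood for 42 genes, and 7 of the genes were represented by 2 members each. An informative name was found for 3 members (2.73%, against 5.52% of all rice probe sets). APG8D belongs to the ATG8 family of small ubiquitin-like proteins, which become attached to a membrane lipid as autophagosomes form and by which cells mark material for breakdown in the vacuole. GRXS1 encodes a glutaredoxin, a class of small proteins that use glutathione and act in redox control. BURP2 belongs to the plant BURP-domain family, in which an Arabidopsis member is a widely used marker of drying. The remaining genes carry locus identifiers without a described function in the tables used, and none is given a role here.

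Most members were near the bottom of the signal range in C bao and well above it in Jamaica. In roots the median over members of the mean signal was 17.4 for C bao, 828 for Jamaica and 336 for F1. In leaves the corresponding medians were 23.4, 1167 and 576. The C bao mean was at or below 32.2, the signal used as the filter level for testing, for 76 members in root (43.8% of all rice probe sets) and for 73 in leaf (42.2% of all). It was at or below that level in both tissues for 63 members, above it in both for 24 and above it in 1 tissue for 23. Every member passed the filter through its Jamaica level, as the rule required. The Jamaica minus C bao difference had a median of 4.20 in root, from 3.02 to 9.02, and of 4.50 in leaf, from 2.09 to 10.19, on the log2(signal + 16) scale, which understates differences from a low level. Both Jamaica arrays were above both C bao arrays for 110 members in root (27.4% of the 42974 probe sets tested) and for 109 in leaf (28.1%), a separation that the rule itself largely fixes.

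**Figure D1:**
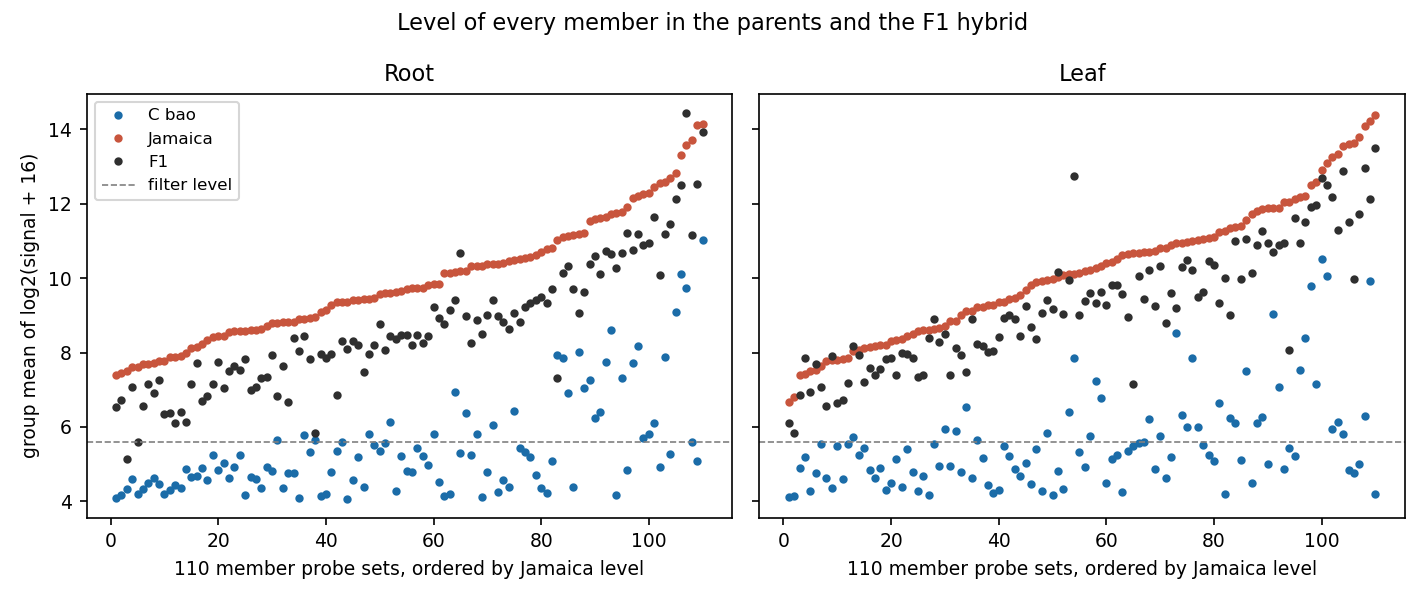
Group mean of log2(signal + 16) of the 110 members in root (left) and leaf (right) for C bao (blue), Jamaica (red) and F1 (black), each panel ordered by the Jamaica level; the dashed line is the filter level of 5.59. F1 points lie mostly between the parents and nearer to Jamaica, with the F1 mean above the Jamaica mean for 2 members in root and 7 in leaf. Both F1 arrays were above both Jamaica arrays for 1 member in root and 0 in leaf.

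Members near the limits of the rule differed little in value from probe sets just outside. Just inside the root limit were Os.47709.1.A1_s_at, with a difference of 3.02, and OsAffx.1869.1.S1_at, with 3.07. Just outside were OsAffx.26560.1.S1_at, with 2.99, and Os.55034.1.S1_at of LOC4340361, with 2.94. At the leaf limit Os.47709.1.A1_s_at (2.09) and Os.22427.1.S1_at of LOC4349330 (2.23) were inside, and Os.15257.1.S1_at of LOC4346205 (1.88) and Os.54482.1.S1_at of LOC9268937 (1.79) were outside.

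The F1 hybrid expressed the members at a level between the parents. The F1 position, 0 at C bao and 1 at Jamaica on the log2 scale, had a median of 0.73 in root (quartiles 0.66 and 0.79) and 0.82 in leaf (quartiles 0.73 and 0.89). It lay between 0.5, the mean of the parents on the log2 scale, and 1 for 98 members in root and for 98 in leaf. In root 9 members lay between 0 and 0.5, 1 lay below C bao and 2 lay above Jamaica. In leaf 5 lay between 0 and 0.5 and 7 above Jamaica, with 0 below C bao. These are positions of means: both F1 arrays were above both Jamaica arrays for 1 member in root and 0 in leaf. Per array, the median position was 0.77 and 0.70 for F1 root replicates 1 and 2, and 0.83 and 0.81 for F1 leaf replicates 1 and 2. F1 root replicate 1 was above replicate 2 for 81 of the members, and F1 leaf replicate 1 above replicate 2 for 52.

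Individual arrays gave the same picture as the means. Both F1 arrays lay above both C bao arrays and below both Jamaica arrays for 105 members in root, where 3.91% of all tested probe sets had this order, and for 89 in leaf, where 3.19% had it. The order was seen in both tissues for 86 members. The share of all tested probe sets with it in both tissues was not computed, so nothing is read from that count. These counts follow in part from the rule, which placed the parents far apart. Between the 2 F1 arrays, 5 members differed by more than 2-fold in root (10.9% of all tested probe sets) and 12 in leaf (22.6% of all).

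**Figure D2:**
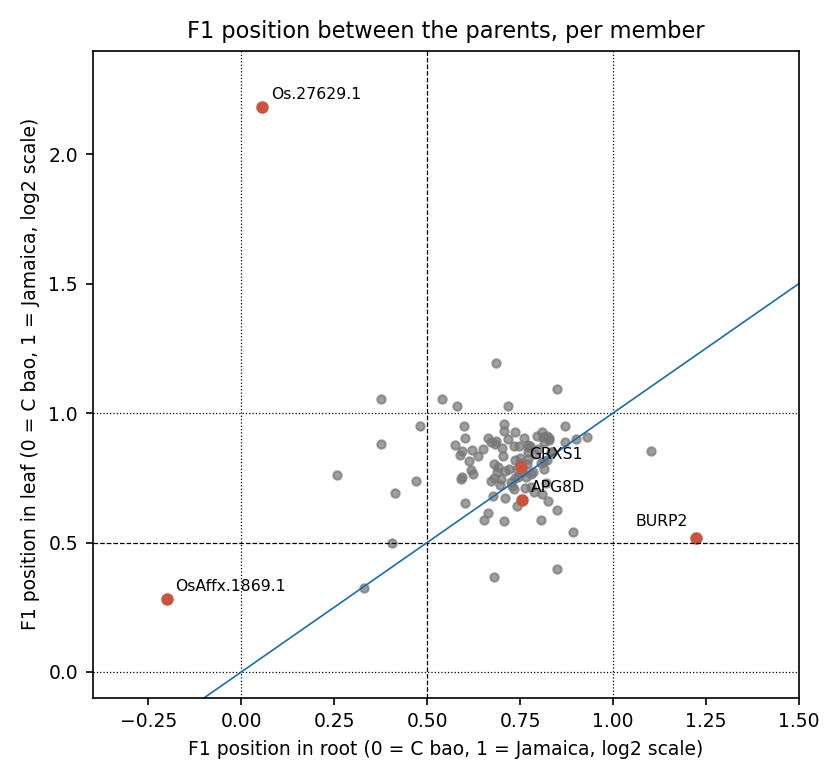
F1 position of each of the 110 members in root (horizontal) and leaf (vertical), where 0 is the C bao mean and 1 the Jamaica mean of log2(signal + 16); dashed lines mark 0.5, dotted lines 0 and 1, and the blue diagonal equal positions. Points above the diagonal, 81 of 110, had a higher position in leaf than in root; red points are the members with a gene name and those with the lowest and highest positions.

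On the linear signal scale the F1 lay below the arithmetic mean of the parents, 0.5, for most members in root, and on either side of it in leaf. The linear position had a median of 0.39 in root (quartiles 0.33 and 0.49) and of 0.54 in leaf (quartiles 0.40 and 0.68). It lay between 0.25 and 0.75 for 94 members in root and for 87 in leaf. The fitted change against the linear mid-parent value was above 0 for 25 members in root and for 61 in leaf. Put as a share of the Jamaica signal, the median F1 signal was 40.6% in root and 56.8% in leaf. Of all members, 81 had a higher linear position in leaf than in root, the same number as on the log2 scale. The medians were also taken by whether C bao had a signal above the filter level. The 63 members low in C bao in both tissues had a median linear position of 0.38 in root and 0.51 in leaf, and the 24 above the filter level in both had 0.41 and 0.61.

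The opposite list, described in the same way, holds the 233 probe sets that C bao expressed above Jamaica by the same limits. With 1 placed at C bao, its median linear F1 position was 0.65 in root and 0.54 in leaf, and its median F1 signal was 66.2% of C bao in root and 56.5% in leaf. In leaf the lists had nearly the same median, whereas in root the F1 had 40.6% of the higher parent for members and 66.2% for the opposite list. Both lists were chosen on the same parental arrays, and the difference between them was not tested.

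**Figure D3:**
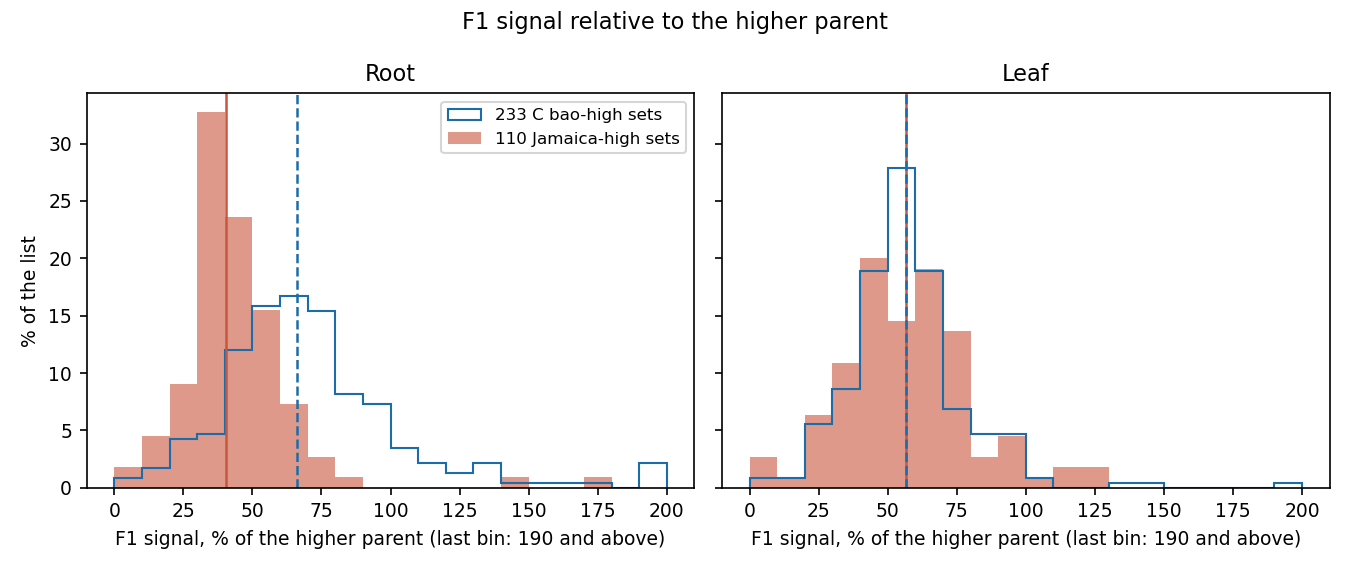
F1 mean signal as a percent of the mean signal of the higher parent, in root (left) and leaf (right), as the share of each list per 10-point bin: red bars are the 110 members (percent of Jamaica) and the blue outline the 233 probe sets higher in C bao (percent of C bao). Vertical lines are medians, red for members (40.6% and 56.8%) and dashed blue for the opposite list (66.2% and 56.5%).

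Tested against the mean of the parental log2 values, the F1 was higher for many members and lower for 1. With equal spread in all groups the measurement error of this contrast is unrelated to that of the parental difference that chose the members. Its size is not: an F1 at the arithmetic mean of widely separated parents lies above their log2 mean by construction, so the counts follow in part from the rule, and nothing is read from their excess over the background. In root, limma called 44 members higher (3.37% of all tested probe sets were called higher) and 1 lower (1.69% of all), at an adjusted p under 0.05, and 75 had an unadjusted p under 0.05 in either direction (18.4% of all). In leaf it called 49 higher (0.982% of all) and 0 lower (0.233% of all), and 88 members had an unadjusted p under 0.05 in either direction (12.4% of all). The median change was 0.98 in root, against 0.12 over all tested probe sets, and 1.46 in leaf, against -0.017. The change was above 0 for 100 members in root (60.1% of all tested) and for 105 in leaf (48.5% of all). Of the members, 34 were called higher in both tissues (0.572% of all tested), 10 in root but not leaf (2.8% of all), 15 in leaf but not root (0.41% of all), and 50 were called in neither (94.4% of all).

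Both counts depended on which arrays entered the fit and how. Without F1 root replicate 1 the number called higher in root fell to 9, and without F1 root replicate 2 it was 20. Without Jamaica root replicate 1 it was 27 and without replicate 2 it was 24. Of the 45 root calls 9 held whichever array was left out, and of the 49 leaf calls 31 held. The number called higher in leaf fell to 9 when the leaf arrays were fitted alone and to 19 with array weights. The share of all tested probe sets called is not given for these fits. A loss of calls particular to the members therefore cannot be told from a general one.

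The calls depended on the scale of the mid-parent value. Against the mean of the parents on the linear scale, with errors approximated from limma's variances, 2 members were called higher in root (2.37% of all tested) and 3 lower (1.86%). The median change was -0.32. In leaf 0 were called higher (0.337% of all) and 1 lower (0.233% of all), with a median change of 0.10. This linear contrast is not unrelated to the parental difference that chose the members. The 2 called higher in root were BURP2, with a change of 1.76 (limma adjusted p = 0.0107), and Os.46901.1.S1_at, with 1.46 (limma adjusted p = 0.0194). The 3 called lower were OsAffx.1869.1.S1_at (-2.85), OsAffx.18906.1.S1_at (-1.58) and Os.22427.1.S1_at (-1.55), with limma adjusted p-values of 0.0013, 0.0427 and 0.0388. Against the log2 mid-parent value Os.22427.1.S1_at was instead called higher in root, by 1.51 (limma adjusted p = 0.0196). The single leaf call was OsAffx.27815.1.S1_s_at of LOC4340994, with -2.68 (limma adjusted p = 0.0437).

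APG8D, the autophagy gene, was near the bottom of the scale in C bao and clearly measured in Jamaica and F1. Its probe set, Os.20902.1.A1_at of LOC4349525, gave root signals of 7.7 and 16.6 in C bao, 1302.1 and 1311.1 in Jamaica, and 655.9 and 379.7 in F1. In leaves it gave 28.1 and 24.3 in C bao, 922.7 and 948.9 in Jamaica, and 276.8 and 361.2 in F1. The F1 arrays overlapped neither parent in either tissue, and the F1 mean was 39.6% of Jamaica in root and 34.1% in leaf. Against the log2 mid-parent value the F1 was 1.43 higher in root (SE 0.28, limma adjusted p = 0.0135). Against the linear mid-parent value the root change was -0.39 (limma adjusted p = 0.588), and the call against the log2 value was lost without F1 root replicate 1 (adjusted p = 0.233) and without Jamaica root replicate 1 (adjusted p = 0.0517). In leaf the change was 0.73 (SE 0.28, limma adjusted p = 0.303) against the log2 and -0.58 (adjusted p = 0.521) against the linear value.

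The other autophagy genes on the array did not show this parental difference. The gene table held 8 genes found by autophagy symbols, and 7 had a probe set, APG8D among them. The 6 others were APG8B and APG8C, of the same family as APG8D, the proteases APG4A and APG4B that process its precursors, and APG5 and APG12, which act in attaching it to lipid. Their Jamaica minus C bao differences ran from -1.29 to -0.019 in root and from -1.03 to 0.37 in leaf. Of these 6 genes, limma called 0 against the log2 mid-parent value in root or in leaf, with 2 at an unadjusted p under 0.05 in root and 0 in leaf. Between F1 leaf and F1 root, 1 of the 6 was called, APG4B, which was lower in leaf by -1.08 (limma adjusted p = 0.001). APG8B, for comparison, had root mean signals of 15715 for C bao, 10689 for Jamaica and 9303 for F1.

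GRXS1, the glutaredoxin gene, was intermediate in F1 in both tissues. Its probe set, Os.9548.1.S1_at of LOC4327130, gave root signals of 128.7 and 156.8 in C bao, 3475.2 and 3500.9 in Jamaica, and 1794.9 and 1453.8 in F1. Leaf signals were 137.5 and 100.5 in C bao, 3893.1 and 3696.2 in Jamaica, and 1822.8 and 1920.4 in F1. No groups overlapped, and the F1 mean was 46.6% of Jamaica in root and 49.3% in leaf. Against the log2 mid-parent value the F1 was 1.13 higher in root (SE 0.17, limma adjusted p = 0.00369) and 1.40 higher in leaf (SE 0.17, limma adjusted p = 0.00373). The root call was lost without F1 root replicate 1 (adjusted p = 0.0955), and the leaf call when leaf arrays were fitted alone (adjusted p = 0.0877). Against the linear value the changes were -0.17 in root (limma adjusted p = 0.73) and -0.063 in leaf (adjusted p = 0.933). Of 21 other glutaredoxin probe sets, a family looked up after the values were seen, 0 were more than 2-fold higher in Jamaica in both tissues (1.22% of all rice probe sets were), and the largest single difference was 2.23, for GRXC10 in leaf.

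BURP2 was above both parents in F1 root and between them in F1 leaf. Its member probe set, Os.28427.1.S2_a_at of LOC4338119, gave root signals of 1311.2 and 540.0 in C bao, 14372.2 and 10455.4 in Jamaica, and 22045.6 and 22528.6 in F1. Both F1 root arrays were above every parental array. In leaves it gave 913.1 and 990.9 in C bao, 16972.1 and 21273.5 in Jamaica, and 4486.4 and 4467.5 in F1, so that F1 leaves lay between the parents. The F1 mean was 180% of Jamaica in root and 23.4% in leaf. Against the log2 mid-parent value the change was 2.78 in root (SE 0.28, limma adjusted p = 0.000331) and 0.07 in leaf (SE 0.28, limma adjusted p = 0.95). The F1 change in leaf minus that in root was itself -2.71 (SE 0.40, limma adjusted p = 0.0117). It was not called without F1 root replicate 1 (adjusted p = 0.0874), without F1 root replicate 2 (adjusted p = 0.0786) or without a trend in the moderation (adjusted p = 0.0502).

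A separate probe set of BURP2 showed the same rise in F1 root without the same parental difference. Os.28427.2.S1_x_at gave root signals of 466.8 and 548.6 in C bao, 817.6 and 736.1 in Jamaica, and 1869.4 and 2177.1 in F1. Again both F1 root arrays were above every parental array. The F1 change against the log2 mid-parent value was 1.66 in root (SE 0.24, limma adjusted p = 0.00275) and -0.19 in leaf (SE 0.24, limma adjusted p = 0.805), and the leaf minus root difference was -1.85 (SE 0.34, limma adjusted p = 0.0323). Its Jamaica minus C bao difference was 0.60 in root and 1.65 in leaf, below both limits. Genes induced by abscisic acid and drying moved with the F1 root result. The mean log2 level of 6 such genes, all 6 of the list being on the array, was 13.9 and 14.0 in F1 root, 6.40 to 7.20 in parental roots and 6.67 to 7.98 in parental leaves. On F1 leaf replicates 1 and 2 it was 7.47 and 10.7, while BURP2 was nearly equal on those arrays. The part of this response in the BURP2 values was not tested. Among 7 other BURP probe sets, 0 were more than 2-fold higher in Jamaica in both tissues, and BURP17 was lower in Jamaica by -9.31 in leaf.

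**Figure D4:**
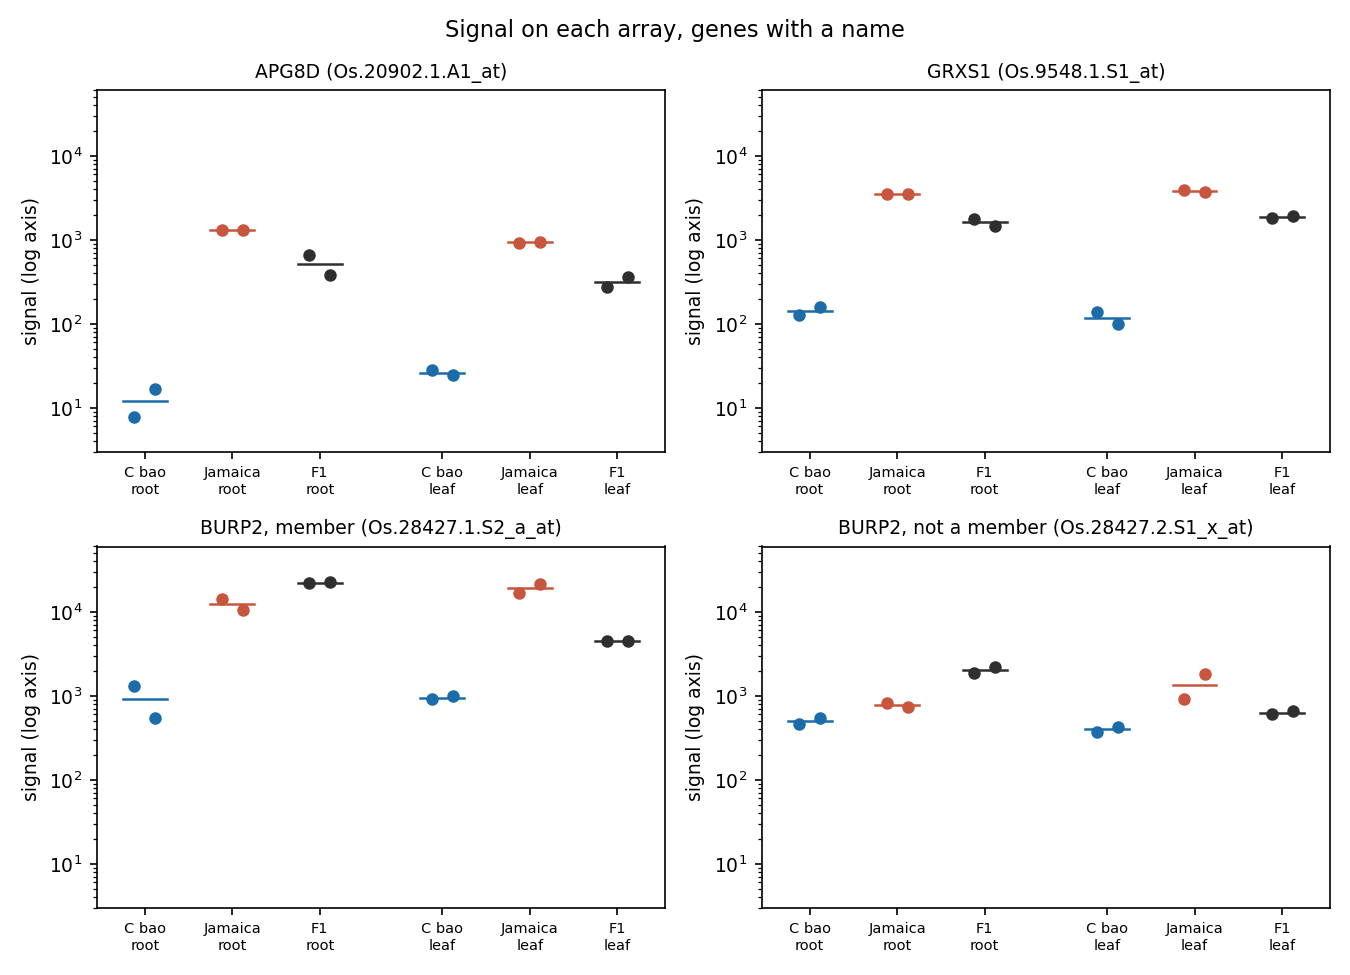
Signal on each of the 12 arrays (points, log axis) and group mean (bar) for APG8D, GRXS1 and both probe sets of BURP2, with C bao in blue, Jamaica in red and F1 in black. F1 lies between the parents for APG8D and GRXS1, and both BURP2 probe sets are higher in F1 root than on any parental root array.

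The members with the widest parental gap had no named gene. Os.47732.1.S1_at, which matched LOC4352472 or LOC4352471, gave root signals of 6.3 and 36.3 in C bao, 20282.6 and 15383.2 in Jamaica, and 6722.2 and 5085.4 in F1. In leaves it gave 1.3 and 3.5 in C bao, 22697.6 and 20190.6 in Jamaica, and 10268.0 and 13018.4 in F1. Its F1 mean was thus 33.1% of Jamaica in root and 54.3% in leaf, with no overlap of the groups. Against the log2 mid-parent value it had the largest leaf change of the members, 4.21 (SE 0.29, limma adjusted p = 0.000188), and a root change of 2.92 (SE 0.29, limma adjusted p = 0.000323). On the linear scale the changes were -0.60 (limma adjusted p = 0.414) in root and 0.11 (adjusted p = 0.932) in leaf.

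The next widest gaps differed in how far the F1 followed Jamaica in leaf. OsAffx.27815.1.S1_s_at of LOC4340994 had F1 leaf signals of 565.1 and 1705.0 against 11070.2 and 14716.3 in Jamaica, or 8.80%, but 36.1% in root. Os.7966.1.S1_at, with no gene, had 22.6% in leaf and 35.2% in root. Os.3777.1.S1_at of LOC4325346 had 47.1% in leaf and 42.9% in root. By contrast Os.11271.2.S1_at of LOC4350213, with F1 leaf signals of 6423.1 and 8956.8 against 14082.2 and 10387.9 in Jamaica, had 62.9% in leaf and 39.5% in root, and its leaf change of 3.21 was called (SE 0.25, limma adjusted p = 0.000249). Os.27445.1.S1_at of LOC9271452 reached 71.8% in leaf and 42.8% in root, with a leaf change of 2.96 (SE 0.23, limma adjusted p = 0.000193). Both leaf changes are against the log2 mid-parent value. Against the linear value the leaf change was 0.32 (limma adjusted p = 0.728) for Os.11271.2.S1_at and 0.49 (limma adjusted p = 0.509) for Os.27445.1.S1_at, and neither was called. Another probe set of LOC4325346, Os.3777.1.S1_s_at, had a Jamaica minus C bao difference of only 0.78 in root and 0.83 in leaf.

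A few members lay outside the parental range or close to 1 parent. Os.46901.1.S1_at, with no gene, gave 2074.4 and 1277.5 in F1 root, 938.7 and 1392.0 in Jamaica root and 22.4 and 23.8 in C bao root. F1 and Jamaica arrays overlapped, and the root position of 1.10 therefore does not separate F1 from Jamaica. Its root change was the largest of the members, 2.95 (SE 0.26, limma adjusted p = 0.000147). Os.37611.2.S1_x_at of LOC4326782 had a root position of 0.93, and Os.33584.1.S1_at of LOC4344457 a leaf position of 1.09, with F1 leaf signals of 402.9 and 534.8 overlapping 309.0 and 462.5 in Jamaica. Other probe sets of these genes lacked the parental difference. Jamaica minus C bao was -0.16 in root and -0.41 in leaf for Os.37611.1.S1_at of LOC4326782. For the other probe sets of LOC4344457 it ran from -0.018 to 0.41 over both tissues.

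At the low end, OsAffx.1869.1.S1_at was the only member called lower than the log2 mid-parent value in F1 root. It gave 132.8 and 156.7 in F1 root, 225.2 and 235.0 in C bao root and 1878.6 and 2239.1 in Jamaica root, so both F1 root arrays were below every parental root array. The change was -2.15 (SE 0.32, limma adjusted p = 0.00288), and it was not called without F1 root replicate 1 (adjusted p = 0.0607). In leaf the same probe set gave 347.2 and 938.8 for F1, 368.6 and 335.2 for C bao and 2101.8 and 1784.0 for Jamaica. There 1 F1 array lay among the C bao arrays and the other between the parents. Os.19393.1.S1_at of LOC4329723 was low in both tissues, at a position of 0.33 in root and 0.32 in leaf, with F1 leaf signals of 133.9 and 120.1 against 2607.6 and 987.9 in Jamaica and 34.0 and 24.0 in C bao. In root its F1 signals of 565 and 477.1 overlapped 100.2 and 554.2 in C bao. The Jamaica root signals, 4195.9 and 1291, also stood apart, so the root position is imprecise. Os.16198.1.S1_at of LOC4335167 had a leaf position of 0.37 from F1 signals of 64.6 and 383.3. These spanned the C bao value of 76.8 and overlapped 926.6 and 311.3 in Jamaica. The position therefore does not place F1 nearer to either parent.

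Os.27629.1.S1_at of LOC4324833 had the most extreme leaf position, 2.18, which rests on discordant Jamaica arrays. The Jamaica leaf signals were 67.3 and 14484.0, the C bao ones 251.9 and 186.2, and the F1 ones 5199.4 and 9097.0. Without Jamaica leaf replicate 1 the position was 0.82, and without replicate 2 it was -3.30, outside any useful range. It was the single member whose parental leaf arrays did not separate. In root its F1 signals of 37.3 and 45.3 lay within the C bao values of 46.1 and 24.6, below 345.1 and 654.4 in Jamaica.

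F1 leaf and F1 root also differed from each other, as organs of different age. Limma called 36 members higher in F1 leaf (13.4% of all tested probe sets were) and 10 lower (16.4% of all), with a median difference of 0.62 against -0.16 over all tested. Jamaica had the same direction by its means for 32 of the 36 and for 8 of the 10. Over all members the median Jamaica leaf minus root difference was 0.13, and 62 members were higher in Jamaica leaf than root. Without F1 root replicate 2 the number higher in F1 leaf was 20.

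Of the 3 largest rises from F1 root to F1 leaf, none was in a gene with an informative name. Os.11110.1.S1_at of LOC4350483 gave 7.7 and 36.4 in F1 root and 1712.5 and 4931.6 in F1 leaf, a difference of 6.37 (SE 0.60, limma adjusted p = 2.01e-05), while Jamaica gave 190.5 and 141.6 in root and 14680.8 and 10432.9 in leaf. Os.27629.1.S1_at was higher in F1 leaf by 6.91 (SE 1.66, limma adjusted p = 0.00935). That call was lost without F1 root replicate 1 (adjusted p = 0.0551) or replicate 2 (adjusted p = 0.0503). Os.26063.1.S1_at, with no gene, was higher in F1 leaf by 3.92 (SE 0.68, limma adjusted p = 0.00141), although its F1 root arrays stood apart at 786.8 and 100.6.

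Root-biased members went the other way. Os.22427.1.S1_at of LOC4349330 gave 2281.2 and 2278.9 in F1 root and 248.6 and 187.1 in F1 leaf, a difference of -3.31 (SE 0.36, limma adjusted p = 6.25e-05). Its Jamaica signals were 15303.5 and 11700.1 in root and 236.3 and 101.7 in leaf, so the F1 had 16.9% of Jamaica in root and 129% in leaf. In leaf the F1 and Jamaica arrays overlapped. Os.11465.1.S1_at of LOC4350662 was lower in F1 leaf by -3.54 (SE 0.65, limma adjusted p = 0.00201) and Os.14042.1.S1_at of LOC4329444 by -2.92 (SE 0.45, limma adjusted p = 0.000694).

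Whether the F1 effect itself differed between leaf and root was tested directly. Limma called 1 member with a larger effect in leaf (0.43% of all tested probe sets) and 1 with a smaller one (0.679% of all), the latter being BURP2, and 32 had an unadjusted p under 0.05 in either direction (13.8% of all). The difference was above 0 for 79 members (41.5% of all tested), with a median of 0.29 against -0.13 over all tested. With the linear mid-parent value 1 was called larger in leaf (0.447% of all) and 1 smaller (0.719% of all): Os.22427.1.S1_at, at 2.70 (limma adjusted p = 0.0304), and BURP2, at -2.92 (limma adjusted p = 0.0138). Against the log2 mid-parent value the difference of Os.22427.1.S1_at was 0.033 (limma adjusted p = 0.984), so its call holds on the linear scale only. The member called with a larger leaf effect against the log2 value was OsAffx.28903.2.S1_at, with no gene. It gave 1823.2 and 1588.4 in F1 root against 4606.4 and 4402.8 in Jamaica root, and 2262.0 and 2691.5 in F1 leaf against 4039.3 and 3444.7 in Jamaica leaf. C bao gave 197.9 and 191.9 in root and 68.3 and 55.5 in leaf, and no groups overlapped. The difference of 1.39 (SE 0.23, limma adjusted p = 0.0193) was lost against the linear mid-parent value (0.84, adjusted p = 0.178). It was also lost when C bao root replicate 2, either Jamaica root array or either F1 root array was left out, with adjusted p-values from 0.0538 to 0.144.

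Other probe sets of the members' genes gave mixed parental differences. Of 22 further probe sets for 15 of the genes, 5 (of 4 genes) were more than 2-fold higher in Jamaica in both tissues, where 1.22% of all rice probe sets were. By the same 2-fold limit 2 were lower in Jamaica in both tissues, and 5 were lower by any amount. No share of all rice probe sets is given for the lower ones. Where 1 gene had 2 member probe sets, as for 7 genes, the largest gap between their F1 positions was 0.132 in root and 0.139 in leaf. Both probe sets of each pair had met the same rule, so this nearness follows in part from it and gives no support to the positions.

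Probe sets of LOC4329444 and LOC4327323 were opposite in the parents by more than 2-fold in both tissues. For LOC4329444, the member Os.14042.1.S1_at gave root signals of 18.9 and 7.2 in C bao, 4124.2 and 3550.7 in Jamaica, and 2516.3 and 2184.5 in F1. Its other probe set, Os.9326.1.S1_at, gave 6752.5 and 6607.2 in C bao, 8.4 and 49.7 in Jamaica, and 4484.3 and 5098.0 in F1. Each probe set thus had a high signal in 1 parent, a low one in the other, and a well-measured one in F1. The F1 root mean of the member was 61.2% of Jamaica, and its root change of 2.84 against the log2 mid-parent value (SE 0.39, limma adjusted p = 0.00208) was lost without F1 root replicate 1 (adjusted p = 0.0513) and against the linear value (0.29, adjusted p = 0.807). For LOC4327323, chosen after its values were seen, the member Os.4960.1.S1_at gave 523.3 and 535.4 in C bao root and 6866.3 and 7519.2 in Jamaica root. Os.48434.1.A1_at of that gene gave 344.1 and 506.5 in C bao root and 44.1 and 3.1 in Jamaica root, and Os.4960.1.S1_s_at, differed by -0.20 in root and -0.20 in leaf. For these genes, therefore, no single direction of the parental difference can be given, and probe-level data were not used here.

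**Figure D5:**
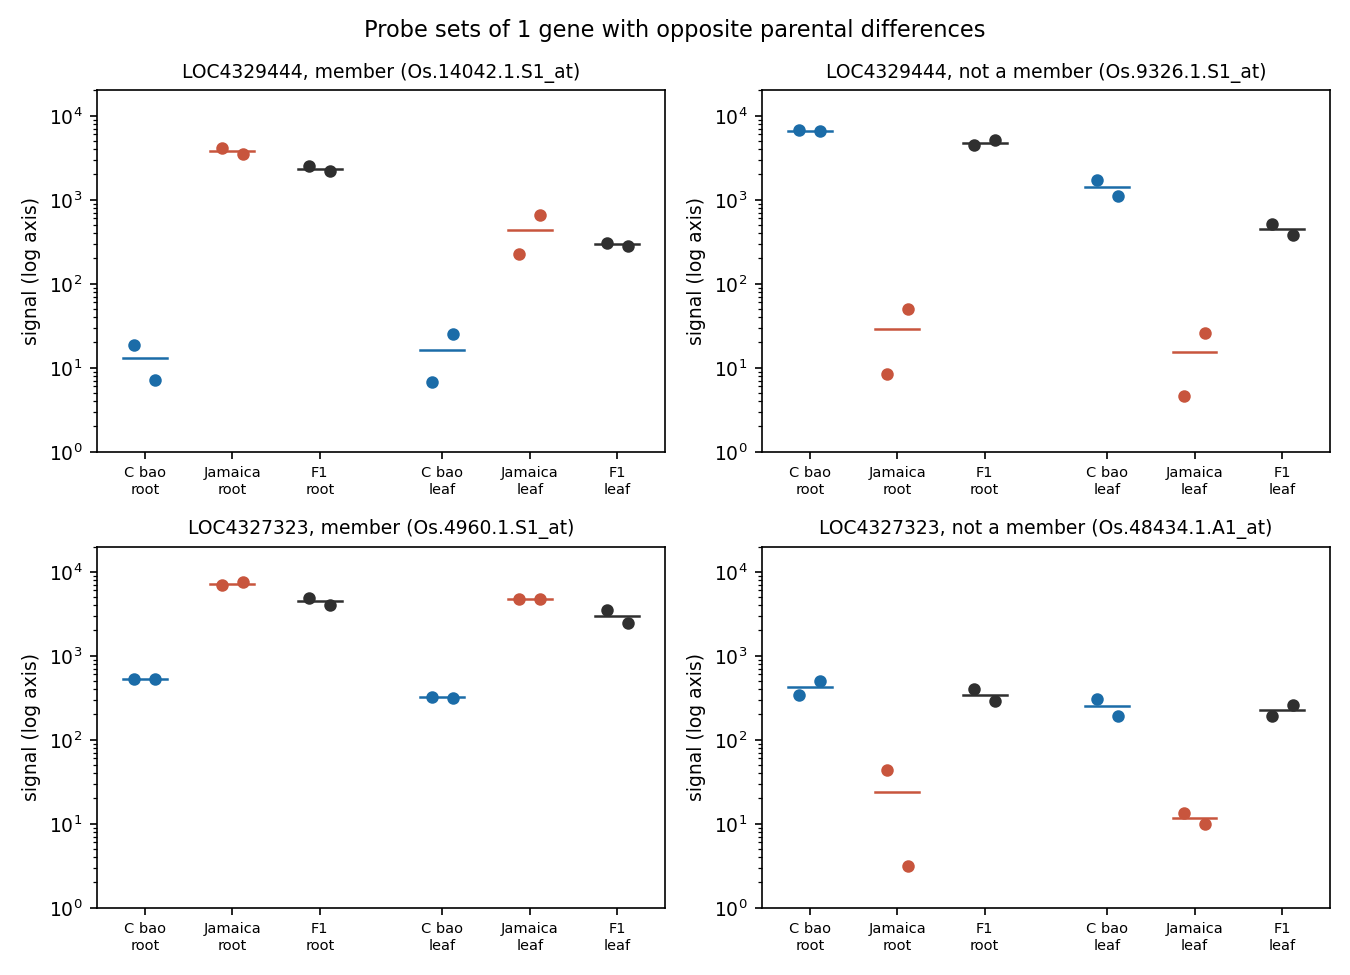
Signal on each of the 12 arrays (points, log axis) and group mean (bar) for LOC4329444 and LOC4327323, with the member probe set on the left and another probe set annotated to the same gene on the right; C bao is blue, Jamaica red and F1 black. The parents change places between left and right, while F1 is well measured in all 4 panels.

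The places of member genes along the genome were taken from gene order in a RefSeq table of another assembly than the array's design. Of 40 member genes with a place, 13 (32.5%) were on 1 chromosome, picked because it held the most member genes. That chromosome held 4.72% of 17738 array genes, and 7 of 96 placed genes of the opposite list (7.29%) were on it. Being picked by the same count, it gives no test of uneven placement. Members occurred as near neighbours in 5 pairs with at most 20 coding genes between them, and no expected number of such pairs was computed. LOC4348060 and LOC4348062 had 0 coding genes between them, LOC4349255 and LOC4349257 had 1, with 1 probe set that was not more than 2-fold higher in Jamaica in both tissues, and LOC4350020 and LOC4350023 had 2. LOC4350650 and LOC4350662 had 15 between them, and of 7 probe sets in that interval 1 was more than 2-fold higher in Jamaica in both tissues. LOC4352673 and LOC4352688 had 16, and 0 of the 2 probe sets between them were.

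By the means of marker lists, the arrays carried the genes of their labelled organs. A list of leaf genes for photosynthesis, 6 of 8 found, had mean log2 levels of 13.9 to 15.1 on leaf arrays and 8.82 to 10.9 on root arrays, and a root list of transporter and nicotianamine synthase genes, 7 of 8 found, had 11.6 to 12.4 on root and 7.84 to 9.16 on leaf arrays. The list means separated the organs on every array, but single root genes did not all do so. NAS1 and NAS2 had 13.2 and 13.1 on F1 leaf replicate 1, against 8.86 and 9.68 on replicate 2. IRT1 had a mean signal of 294 in Jamaica leaf and 228 in Jamaica root. Genes of dividing cells, 7 of 8 found, had 10.2 and 6.14 on F1 leaf replicates 1 and 2, where C bao leaves had 9.71 and 10.2 and Jamaica leaves 6.09 and 7.08. The median F1 position of the members on the same F1 leaf arrays was 0.83 and 0.81, and the part of the dividing-cell genes in the leaf results was not tested.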

How the data were processed

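RNA from 12 samples was measured on Affymetrix rice arrays, extracted with RNeasy columns and labelled with a one-cycle kit, per the labels' protocols. The deposited values were linear intensity signals made with MAS5, per the submitters' processing notes; 2% trimmed means of 500.06 to 500.08 show that the authors had scaled the arrays. Detection calls, hybridisation batches and growth conditions are not given in the sources used here.

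Without the 123 control probe sets, each array was set to a trimmed mean of exactly 500 and the signal, plus 16, was put on the log2 scale. A probe set was tested when a group mean exceeded 5.59, the mean 40th percentile over arrays (signal 32.2), which left 42974 (75.1%). Limma 3.58.1 in R 4.3.3 fitted 6 group means to all arrays, with a trend (residual degrees of freedom 6, prior 4.58) and Benjamini-Hochberg adjustment over all tested probe sets, threshold 0.05; effects carry limma standard errors. Contrasts were F1 against the mean of the parental log2 means in each tissue, their leaf minus root difference, and F1 leaf against F1 root. For the linear mid-parent value, each parental log2 group mean was put back on the linear scale, these levels were averaged, and log2 was taken. It thus differs from the mean of the parental mean signals where replicate arrays disagree. Its standard errors were approximated by the delta method from limma's moderated variances. The p-values came from a t distribution with limma's degrees of freedom and were adjusted in the same way. Tables were made with Python 3.11.15.

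Genes came from the platform annotation (22436 probe sets with 1 gene, 95 with several, 34727 with none there) and a RefSeq gene table, in which all 17905 genes were found; APG8D, BURP2 and GRXS1 are synonyms there. The RefSeq assembly is ASM3414082v1 and was used for names and gene order. Named were all members with an informative name, the 3 largest rises and falls per test among calls, the 3 highest and lowest positions per tissue, 2 probe sets on each side of each limit and the 5 widest parental gaps; others are marked. The members, lists and tests were chosen with earlier results of these data known. The code was tested on simulated data. Alternatives were other scalings, pseudocounts, filters, mid-parent values, fits and thresholds, a replicate block and leaving out each array. With 2 arrays a group, the number of arrays limits the precision. Sequences and coordinates were not used here.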

Additional observations from a re-analysis of the deposited data

Results flagged for a closer look

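The F1 effect against the log2 mid-parent value was flagged as unlike in leaf and root for 6 members. Flags came from the test of the difference or from the side on which the F1 arrays lay. The leaf minus root difference passed the test for the BURP2 probe set Os.28427.1.S2_a_at, at -2.71 (SE 0.40, limma adjusted p = 0.0117), and for OsAffx.28903.2.S1_at, at 1.39 (SE 0.23, limma adjusted p = 0.0193). For the other 4, every F1 array lay on 1 side of the mid-parent value in root and on the opposite side in leaf, and the difference did not pass the limma test. How many of all tested probe sets had such opposite sides was not counted.

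Os.11110.1.S1_at of LOC4350483 had a difference of 3.06 (limma adjusted p = 0.0864). Its F1 root arrays lay below the mid-parent value by -1.34 and -0.20, and its F1 leaf arrays above it by 1.53 and 3.05. Os.27629.1.S1_at of LOC4324833 had a difference of 5.23 (limma adjusted p = 0.288), with discordant Jamaica leaf arrays. OsAffx.18906.1.S1_at had 1.78 (limma adjusted p = 0.122). OsAffx.27816.1.S1_at went the other way, at -2.10 (limma adjusted p = 0.249), with F1 arrays above the mid-parent value by 1.29 and 1.54 in root and below it by -1.03 and -0.34 in leaf. Groups of 2 arrays are too small for a test of single outlying arrays.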

How the results depend on the processing

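With 110 members held fixed, calls against the mid-parent value depended most on its scale. On the linear scale root gave 2 higher and 3 lower and leaf 0 higher and 1 lower, and changes of sign were seen in root for APG8D (-0.39), GRXS1 (-0.17) and Os.47732.1.S1_at (-0.60) and in leaf for GRXS1 (-0.063), APG8D (-0.58) and BURP2 (-1.15), none of them called. The BURP2 leaf change, 0.07, ran from -0.014 (without Jamaica leaf replicate 1) to 0.15 when single arrays were left out. A pseudocount of 64 gave 29 higher in root and 6 members with a larger leaf effect, and a pseudocount of 1 gave 22 higher in F1 leaf than F1 root. A threshold of 0.01 gave 22 higher in root, 27 in leaf, 0 and 0 for the leaf minus root difference, and 21 higher and 6 lower in F1 leaf than F1 root. Root arrays fitted alone gave 2 lower, leaf arrays alone 9 higher, and array weights 19 higher in leaf. The leaf minus root difference had 5 higher with median centring, 2 with a filter at the 60th percentile, and 0 higher and 0 lower without a trend. Median centring gave 6 lower in F1 leaf than F1 root. Scaling moved the median root change of all probe sets from 0.12 as deposited to -0.01 (quantile) and -0.13 (median centring).

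The median position in root was 0.67 with median centring, 0.67 with a pseudocount of 64 and 0.39 on the linear scale. In leaf it was 0.79 with quantile scaling, 0.85 and 0.77 with pseudocounts of 1 and 64, and 0.54 on the linear scale. The rule itself gave 229 members with a pseudocount of 1 and 61 with 64. Leaving out each array gave 9 to 49 higher and 0 to 2 lower in root, 34 to 47 and 0 to 1 in leaf, 0 to 5 and 0 to 2 for the leaf minus root difference, 20 to 38 and 6 to 11 for F1 leaf against F1 root, median positions of 0.70 to 0.77 and 0.81 to 0.83, and 109 to 123 members. For the tests of named members, 628 values under alternatives kept their direction and side of the threshold, 26 were no longer called and 7 changed sign. Leaving out both F1 leaf arrays, an alternative chosen after seeing the data, gave 49 higher and 1 lower in root. A single tissue could not give the leaf minus root difference or F1 leaf against F1 root, and the latter has no mid-parent value. The causes of these shifts were not tested. Counts of called members under the alternatives, here and below, stand without the share of all tested probe sets, so they describe only the members.

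Deviations of same-numbered arrays had correlations from -0.168 to 0.078 over 15 pairs of groups. Such correlations cannot show whether same-numbered samples shared plants or a batch. With the replicate number as a block, limma called 37 higher and 1 lower in root, 45 and 0 in leaf, 1 and 1 for the leaf minus root difference, and 36 and 9 for F1 leaf against F1 root.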
